A study of Homo sapiens with 4 samples.

Results

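The genes described here encode the aminoacyl-tRNA synthetases, the enzymes that load each tRNA with its amino acid before translation. They were chosen by name from a list of 36 genes, 20 for the cytosolic enzymes and 16 for the mitochondrial ones. The expression table lists 34 of them, 19 cytosolic and 15 mitochondrial, among 11415 genes, and VARS and VARS2, the valyl-tRNA synthetases, are not among the listed genes and were not analysed here. RNA came from TK6, a human lymphoblastoid cell line that is heterozygous at the thymidine kinase (TK) locus, seeded at 200000 cells per ml in High Aspect Ratio Vessels (HARV) and kept there for 48 hours. In simulated microgravity (2 libraries) the vessels rotated at 12 rpm, and in the static control (2 libraries) they stood still, with medium, incubator and cell density shared by both conditions. TK6 is a single line grown in culture. The labels call the RNA samples duplicates, and the study calls the replicates of its DNA libraries biological. Whether the RNA duplicates were separate cultures is not stated, so the spread behind each p-value may be technical.

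Most amino acids have a cytosolic synthetase and a second, nuclear-encoded enzyme for the mitochondrion, whose symbol ends in 2. GARS and KARS encode the enzyme of both compartments, and the mitochondrion has no glutaminyl-tRNA synthetase of its own. Several of the cytosolic enzymes are held, with the scaffold proteins encoded by AIMP1, AIMP2 and EEF1E1, in the multisynthetase complex. Many cytosolic synthetase genes are known targets of ATF4, the transcription factor of the integrated stress response, which binds the C/EBP-ATF response element and is activated when amino acids run short.

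Between 57481518 and 64497287 reads per library were counted on 1 RefSeq record per gene, and simulated microgravity replicate 2 was the deepest library. The 34 synthetase genes had between 459 and 43667 counts each in every library, and all of them passed the filter on low counts. Values are given as CPM, read counts relative to the TMM-scaled library size over 1 record per gene. Of 8 B cell markers 7 were listed, with a summed level of 2716 to 2783 CPM in the static control and 2742 to 2891 CPM in simulated microgravity, while none of the 5 T cell or 5 myeloid markers was listed. Within that sum MS4A1 rose in each simulated microgravity library set against both controls (log2 fold change 0.26 in replicate 1 and 0.22 in replicate 2) and CD74 fell in replicate 2 (-0.19, edgeR adjusted p = 0.0450). The 2 simulated microgravity libraries differed in how many genes stood apart from the controls. Each comparison of 1 library with both controls takes the spread of that library to be that of the controls. Set against both controls with edgeR's quasi-likelihood test, replicate 2 had 7.68% of all genes past a false discovery rate (FDR) of 0.1 and replicate 1 had 1.85%. Results are therefore given for both libraries together and for each of them alone. In bulk RNA, a change in the number of cells of a kind and a change in RNA per cell cannot be told apart.

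With both libraries of each condition, none of the 34 synthetase genes changed at an FDR under 0.1 in edgeR's quasi-likelihood test, where 1.1% of all genes passed and 0.237% were higher. An unadjusted p under 0.05 in that test was found for 5 genes, CARS, AARS, MARS and NARS of the cytosol and CARS2 of the mitochondrion, and all 5 had higher means in simulated microgravity. That is 5 of 34, where 8.08% of all genes were under this threshold, 3.43% higher and 4.64% lower. DESeq2 called 1 of the 34, AARS (adjusted p = 0.0574, with 0.937% of all genes called), and limma-voom, edgeR's exact test and its likelihood ratio test called none. Without simulated microgravity replicate 1, 7 of the 34 rose, where 2.5% of all genes did. The differences were small throughout. The 95% intervals of the log2 fold changes reached no further than 0.45 from 0 for any of the 34 genes, a 1.37-fold change, and the standard errors (SE) ran from 0.08 to 0.12. With 2 libraries per condition, the smallest two-sided p that an exact permutation test can give is 0.333, so it was not used for single genes.

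**Figure D1:**
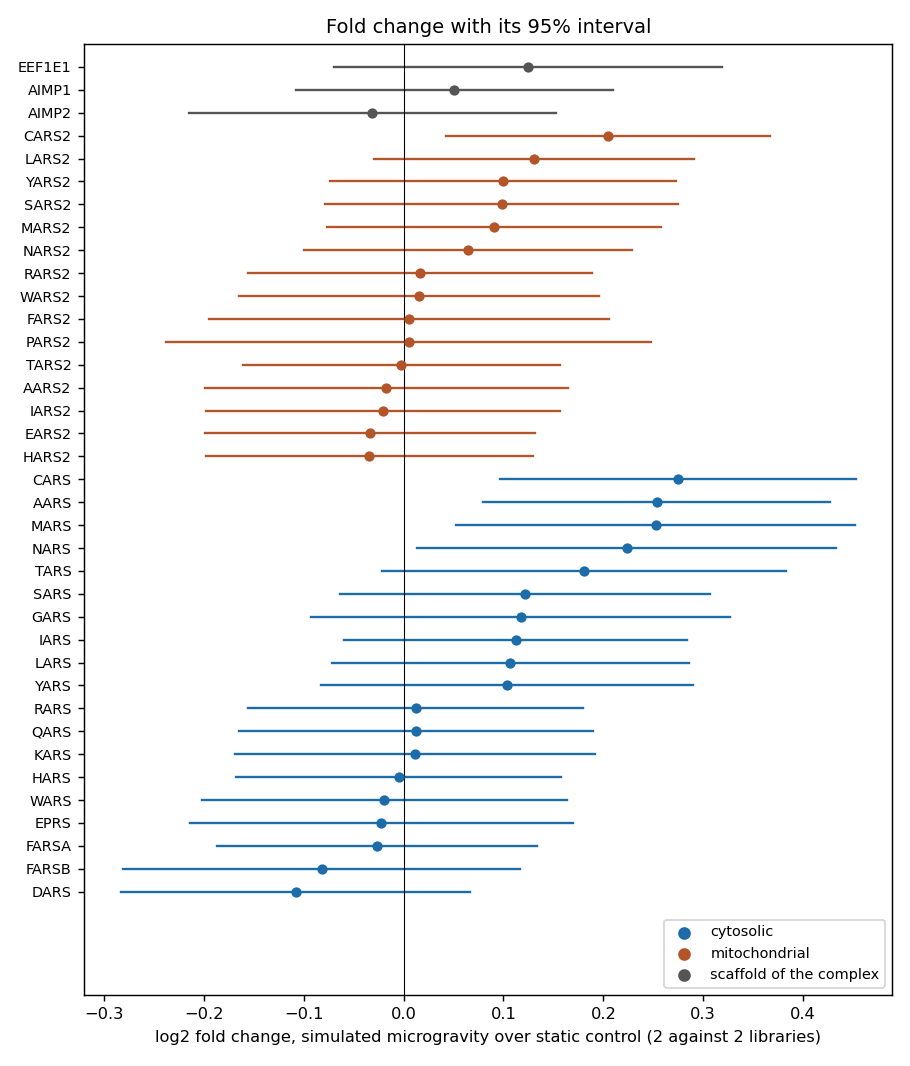
Difference between simulated microgravity and static control as a log2 fold change (x axis) for the 34 listed synthetase genes and 3 scaffold genes of the multisynthetase complex (rows), with points for edgeR's estimate and lines for its 95% interval. The interval lies above 0 for CARS, AARS, MARS, NARS and CARS2, none of which passed the FDR.

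AARS encodes the alanyl-tRNA synthetase, a class II enzyme (hg19 chromosome 16, 70286297 to 70323412, minus strand). Its level was 321 and 320.5 CPM in the static control libraries, 369 CPM in simulated microgravity replicate 1 and 396 CPM in replicate 2. The controls nearly coincided and both simulated microgravity libraries lay above them. With n = 2 libraries per condition, the mean and SD were 382 ± 19.1 CPM in simulated microgravity and 321 ± 0.569 CPM in the static control. The log2 fold change was 0.25 (SE 0.08, edgeR adjusted p = 0.274).

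The cysteinyl-tRNA synthetase gene CARS (hg19 chromosome 11, 3022152 to 3078681, minus strand) had 94.7 and 94.2 CPM in the static controls, and 103 and 125 CPM in simulated microgravity replicates 1 and 2. Again the groups did not overlap, and replicate 2 stood furthest from the controls. The log2 fold change was 0.27 (SE 0.08, edgeR adjusted p = 0.221), the largest of the 34. CARS2, its mitochondrial counterpart (hg19 chromosome 13, 111293757 to 111358480, minus strand), had 99.2 and 92.5 CPM in the static controls and 105 and 116 CPM in simulated microgravity, a log2 fold change of 0.20 (SE 0.08, edgeR adjusted p = 0.411). Cysteine was thus the only amino acid for which both the cytosolic and the mitochondrial gene had an unadjusted p under 0.05 in that test, among the 12 pairs of genes with the same stem that the table lists.

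MARS encodes the methionyl-tRNA synthetase, a member of the multisynthetase complex (hg19 chromosome 12, 57881736 to 57910438, plus strand). Its level was 294 and 276 CPM in the static controls and 308 and 371 CPM in simulated microgravity, a log2 fold change of 0.25 (SE 0.09, edgeR adjusted p = 0.411). The asparaginyl-tRNA synthetase gene NARS (hg19 chromosome 18, 55267894 to 55289177, minus strand) had 285 and 300.4 CPM against 303 and 380.3 CPM, a log2 fold change of 0.22 (SE 0.10, edgeR adjusted p = 0.568). In both genes replicate 1 lay closer to the higher control than to replicate 2. TARS, for threonine (hg19 chromosome 5, 33440882 to 33468196, plus strand), had 521 and 553 CPM in the static controls, 535 CPM in replicate 1 and 681 CPM in replicate 2. Here replicate 1 lay between the controls and the groups overlapped (log2 fold change 0.18, SE 0.10, edgeR adjusted p = 0.702).

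Of the remaining cytosolic genes, SARS, GARS, IARS, LARS and YARS, which load serine, glycine, isoleucine, leucine and tyrosine, had log2 fold changes of 0.12, 0.12, 0.11, 0.11 and 0.10. The other 9, EPRS, FARSA, FARSB, HARS, KARS, QARS, RARS, WARS and DARS, ranged from -0.11 to 0.01. DARS, the aspartyl-tRNA synthetase of the complex, had the lowest value, -0.11 (SE 0.08, edgeR adjusted p = 0.863). It was the only cytosolic gene with both simulated microgravity libraries below both controls, at 219 and 224 CPM against 228 and 251 CPM. Over the 19 cytosolic genes the median log2 fold change was 0.10, against 0.00065 over all genes, and 13 were positive, where 50.2% of all genes were. Without simulated microgravity replicate 2 that median was -0.010, and without replicate 1 it was 0.14. The CPM did not overlap between conditions for 6 cytosolic genes that were higher (AARS, CARS, IARS, LARS, MARS and NARS) and for DARS, which was lower. Over all genes, 17.9% were higher without overlap and 18.1% were lower.

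For the mitochondrial synthetases the median log2 fold change was 0.02, and 10 of 15 were positive, where 50.2% of all genes were. LARS2, for leucine, had 77.0 and 74.1 CPM in the static controls and 79.6 and 85.8 CPM in simulated microgravity (log2 fold change 0.13, SE 0.08, edgeR adjusted p = 0.750). YARS2 had 31.1 and 30.9 CPM against 32.0 and 34.4 CPM, and MARS2 had 39.3 and 39.8 CPM against 41.7 and 42.6 CPM. These 3 genes and CARS2 were higher without overlap, by small margins, as was WARS2, at 19.54 and 19.46 CPM in the controls against 19.87 and 19.55 CPM. SARS2, for serine, had 44.0 and 40.5 CPM in the static controls and 47.3 and 43.2 CPM in simulated microgravity, where replicate 2 lay between the controls. Log2 fold changes were 0.10 for YARS2, 0.09 for MARS2 and 0.10 for SARS2, with edgeR adjusted p of 0.885, 0.897 and 0.889. The other 10 mitochondrial genes, AARS2, EARS2, FARS2, HARS2, IARS2, NARS2, PARS2, RARS2, TARS2 and WARS2, had log2 fold changes from -0.03 to 0.06. EARS2, the glutamyl-tRNA synthetase of the mitochondrion, was lower without overlap, at 46.8 and 47.0 CPM in simulated microgravity against 48.9 and 47.2 CPM in the static control. Here too the shares of all genes without overlap were 17.9% higher and 18.1% lower, 35.9% in either direction.

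**Figure D2:**
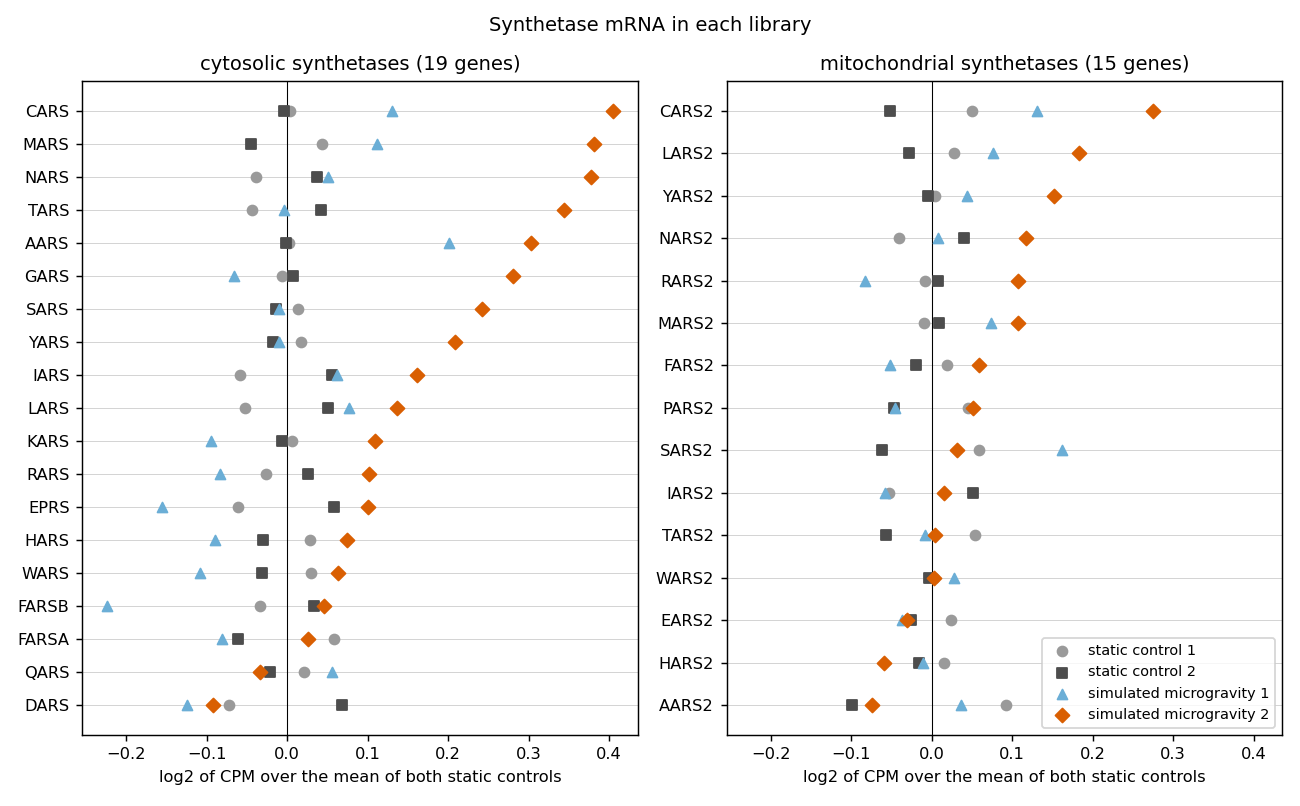
Level of each synthetase mRNA in the 4 libraries, as log2 of its CPM over the mean of both static controls (x axis), for 19 cytosolic (left) and 15 mitochondrial (right) genes in rows. Simulated microgravity replicate 2 (diamonds) lies above both controls for 16 of 19 cytosolic and 9 of 15 mitochondrial genes, and replicate 1 (triangles) for 7 and 6.

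Each simulated microgravity library was then set against both controls. Both comparisons use the same control libraries, and they take the spread of the single library to be that of the controls. In replicate 2, 7 of 34 synthetase genes rose at an FDR under 0.1 and none fell, where 2.5% of all genes rose and 5.19% fell. They were CARS, MARS, NARS, TARS, AARS and GARS of the cytosol and CARS2 of the mitochondrion. The log2 fold change was 0.41 for CARS (SE 0.08, edgeR adjusted p = 8.3e-06), a 1.32-fold higher level than the mean of the controls. It was 0.38 for MARS and 0.38 for NARS (SE 0.10 each, edgeR adjusted p = 0.00406 and 0.00431), 0.35 for TARS (SE 0.08, edgeR adjusted p = 0.00141) and 0.31 for AARS (SE 0.10, edgeR adjusted p = 0.0358). GARS, whose enzyme serves both compartments, had 341 and 344 CPM in the static controls, 327 CPM in replicate 1 and 416 CPM in replicate 2 (hg19 chromosome 7, 30634181 to 30673648, plus strand). Its log2 fold change in replicate 2 was 0.28 (SE 0.10, edgeR adjusted p = 0.0598). CARS2 had 0.28 (SE 0.08, edgeR adjusted p = 0.00936).

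In replicate 1 none of the 34 genes passed in edgeR's quasi-likelihood test, where 1.85% of all genes did and 0.788% rose. The unadjusted p was under 0.05 for AARS, which was higher (log2 fold change 0.20), and for FARSB, the beta subunit of the phenylalanyl-tRNA synthetase, which was lower (-0.22). Over all genes 4.77% were higher and 4.65% lower at that threshold. DESeq2 and limma-voom called none of the 34 in replicate 1. The genes that rose in replicate 2 had log2 fold changes in replicate 1 of 0.13 (CARS), 0.11 (MARS), 0.05 (NARS), -0.0038 (TARS), 0.20 (AARS), -0.07 (GARS) and 0.13 (CARS2). AARS and CARS2 therefore came nearest to equal values in both libraries, while TARS and GARS were above the controls in replicate 2 only. The difference between the 2 replicates of a condition cannot be tested.

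Just inside the threshold in replicate 2 lay GARS, and just outside it lay SARS, the seryl-tRNA synthetase (log2 fold change 0.24, edgeR adjusted p = 0.116), and LARS2 (0.18, adjusted p = 0.206). Other tools and scalings were run for this comparison after the data had been seen. DESeq2 and edgeR with robust = TRUE called SARS as well and so 8 genes, where 0.929% and 2.48% of all genes rose. Limma-voom called 5, without GARS and CARS2 (0.622% of all genes), and edgeR's likelihood ratio test called only CARS and CARS2 (1.76%). With DESeq2 size factors (2.51% of all genes) or library sizes alone (2.54%) in place of TMM, the same 7 genes rose. CARS was the only gene called in all 7 of these fits, TMM included.

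**Figure D3:**
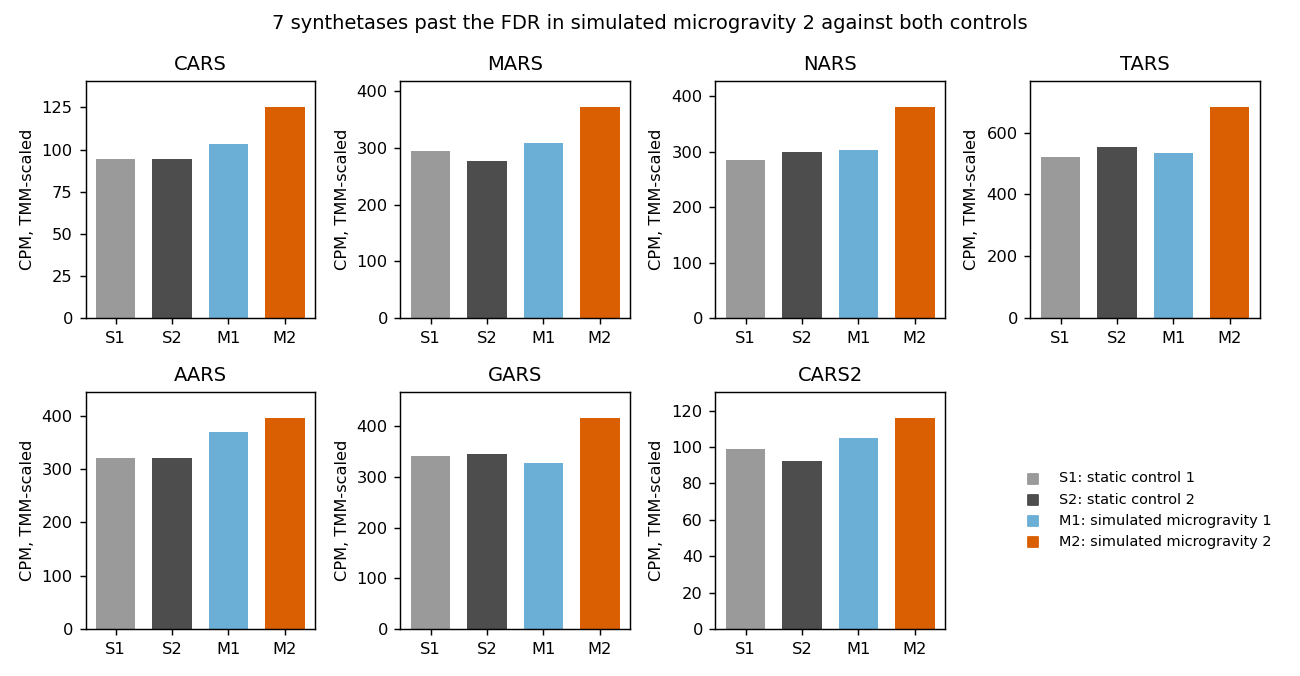
TMM-scaled CPM (y axis, from 0) in each of the 4 libraries (bars; S, static control, M, simulated microgravity) for the 7 synthetase genes that rose in simulated microgravity replicate 2 against both controls. In every panel the highest bar is replicate 2, and replicate 1 lies below the lower control for GARS and between the controls for TARS.

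Replicate 1 lay above both controls for 7 of 19 cytosolic and 6 of 15 mitochondrial genes and below both for 9 and 4, where 35.1% of all genes lay above and 34.9% below. Replicate 2 lay above both for 16 and 9 and below both for 2 and 2, where the shares of all genes were 36.9% and 37.6%. Summed over the 19 cytosolic genes, synthetase mRNA came to 5407 and 5529 CPM in the static controls, 5404 CPM in simulated microgravity replicate 1 and 6210.4 CPM in replicate 2. Replicate 1 was thus just under both controls and replicate 2 was 1.14 times their mean. For the 15 mitochondrial genes the sums were 949.96 and 943 CPM in the controls and 953 and 993 CPM in simulated microgravity, 1.01 and 1.05 times the control mean. Replicate 2 lay above replicate 1 for 18 of 19 cytosolic genes, all but QARS, and for 11 of 15 mitochondrial genes, against 48.3% of all genes. Between the controls, replicate 2 was the higher library for 9 of 19 and 4 of 15, against 49.7% of all genes.

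By enzyme class, 2 of 9 listed class I genes (CARS and MARS) and 4 of 10 class II genes (AARS, GARS, NARS and TARS) rose in replicate 2. The median log2 fold change there was 0.14 for class I and 0.18 for class II. Of the 8 enzymes of the multisynthetase complex 1 rose, MARS, with a median of 0.11, and of the 11 cytosolic genes outside the complex 5 rose, with a median of 0.24. Of all genes, 2.5% rose. The scaffold gene EEF1E1 had 95.2 and 98.5 CPM in the static controls, 93.0 CPM in replicate 1 and 118 CPM in replicate 2, and it rose in replicate 2 (log2 fold change 0.29, SE 0.08, edgeR adjusted p = 0.00576). The other scaffold genes had values of 0.14 for AIMP1 and 0.06 for AIMP2 and did not pass in that test. With both libraries of each condition none of the 3 passed, at 0.12 for EEF1E1, 0.05 for AIMP1 and -0.03 for AIMP2.

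Of the cytosolic genes, 12 are on the list of known ATF4 targets, namely AARS, CARS, EPRS, GARS, IARS, LARS, MARS, NARS, SARS, TARS, WARS and YARS. This list and that of the other ATF4 targets were chosen with earlier results of these data known. The counts below therefore describe the lists and are not an independent test of them. All 6 cytosolic genes that rose in replicate 2 are among these 12, and none of the 7 listed genes outside that set rose. All 12 had a level above both controls in replicate 2, where 36.9% of all genes did, and their median log2 fold change there was 0.26. In replicate 1, 6 of the 12 lay above both controls, where 35.1% of all genes did, with a median of 0.02. The 7 other genes had medians of 0.05 in replicate 2 and -0.09 in replicate 1. Among 30 listed ATF4 targets that are not synthetases, 23 rose and none fell in replicate 2, and 2 rose and 1 fell in replicate 1. Of all genes, 2.5% rose in replicate 2 and 0.788% in replicate 1. Their median log2 fold change was 0.35 in replicate 2 and 0.06 in replicate 1. With both libraries 4 of the 30 rose, where 0.237% of all genes did. Sequencing depth also moved with these values, since replicate 2 was the deepest library and replicate 1 the shallowest. The part of ATF4 or of depth in them was not tested.

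Promoter sequences were searched for the C/EBP-ATF response element, the sequence that ATF4 binds, and the matches are shown because they were found in 6 of the 7 genes that rose in replicate 2. RefSeq promoters of 300 bases (250 before and 50 after the start of the gene, build GRCh38.p14) were given for 30 of the 34 genes. The letters TGATGNAA were searched on both strands. They were in 7 of 16 cytosolic synthetase genes with a promoter, in 1 of 14 mitochondrial ones (YARS2) and in 2.76% of the 8869 tested genes with a promoter. Of all 35116 promoters in the table, 3.62% held them. The matches in the cytosolic genes are shown with 11 bases on either side, 5′ to 3′ on the strand of the gene, with the match in capitals.
AARS: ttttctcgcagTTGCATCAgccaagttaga
CARS: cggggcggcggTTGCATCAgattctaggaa
GARS: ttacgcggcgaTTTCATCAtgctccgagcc
IARS: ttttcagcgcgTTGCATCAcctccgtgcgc
MARS: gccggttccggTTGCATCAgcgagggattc
NARS: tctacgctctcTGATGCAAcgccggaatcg
TARS: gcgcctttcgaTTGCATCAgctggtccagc

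The match was on the minus strand relative to the gene in all of them but NARS. Of the 7, 6 hold TGATGCAA when read on the matching strand, letters present in 0.866% of all promoters, and GARS holds TGATGAAA. All but that of AARS lay within 33 bases of the start of the gene. They began 2 bases before it in CARS, 4 bases before it in MARS, 13 in IARS, 33 in GARS and 187 in AARS, and 2 bases after it in TARS and 14 bases after it in NARS. CARS, GARS and TARS each have 2 promoters in the table, and the letters were in 1 of the 2. The windows lie at chr16:70289675-70289704 for AARS, chr11:3057407-3057436 for CARS and chr7:30594834-30594863 for GARS. Those of the other genes lie at chr9:92293692-92293721 for IARS, chr12:57488053-57488082 for MARS, chr18:57621804-57621833 for NARS and chr5:33440956-33440985 for TARS.

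Of the 7 cytosolic genes with the match, 6 rose in replicate 2, all but IARS (log2 fold change 0.16, edgeR adjusted p = 0.365). None of the 9 cytosolic genes with a promoter but no match rose, and neither did LARS, YARS and DARS, which have no promoter in the table. The median log2 fold change in replicate 2 was 0.35 with the match and 0.08 without it. CARS2, the mitochondrial gene that rose, has no match in its 2 promoters. Over all tested genes with a promoter, 13.9% of 245 with the letters and 2.2% of 8624 without them rose in replicate 2. Both of these sets include the synthetase genes described above, so they are not independent of them. The median log2 fold changes of both sets were near 0, at 0.03 and 0.00. The motif was chosen with earlier results of these data known, and the matches are shown because genes that rose in replicate 2 held them. The contrast between synthetase genes with and without the match is therefore not a separate test. A match of letters is a description and does not show that a factor was bound.

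**Figure D4:**
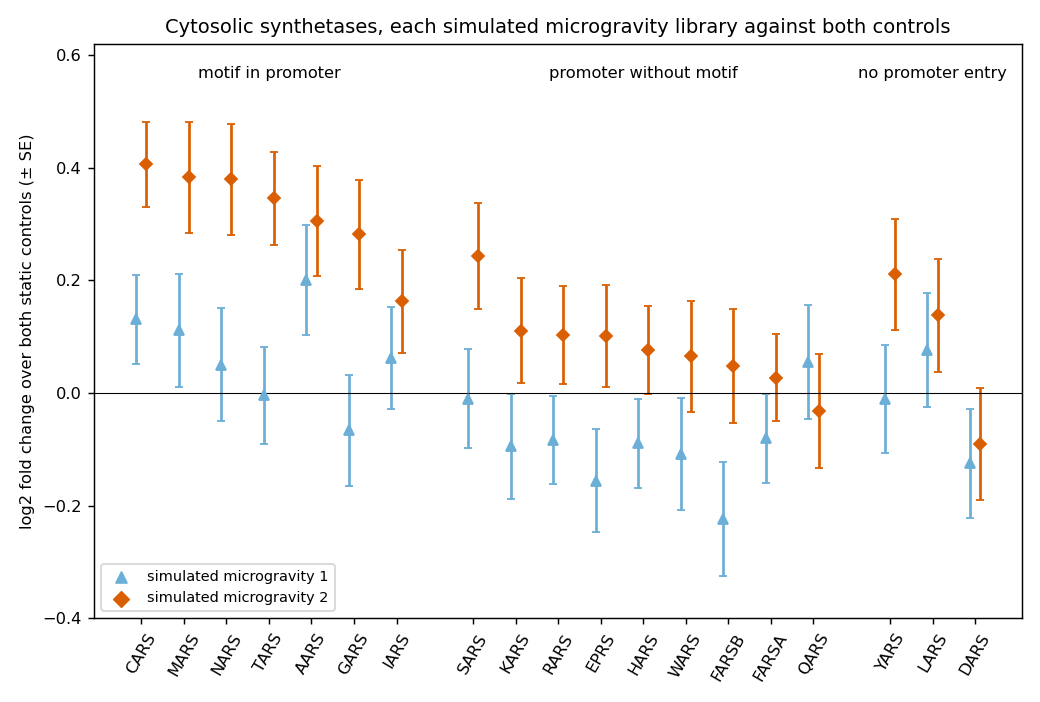
Log2 fold change over both static controls (y axis, ± standard error) of the 19 cytosolic synthetase genes in simulated microgravity replicate 1 (triangles) and replicate 2 (diamonds), grouped by whether the letters TGATGNAA were found in a RefSeq promoter of the gene. In replicate 2 the 7 genes with the match run from 0.16 to 0.41, and in replicate 1 from -0.07 to 0.20.

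Cytosolic and mitochondrial genes for the same amino acid were compared as a ratio of CPM within each library, set to a mean of 1 over the controls. The ratio of AARS to AARS2 was 0.935 and 1.07 in the controls, 1.12 in replicate 1 and 1.29 in replicate 2. For TARS over TARS2 it was 0.932 and 1.07, then 1.00 and 1.26, and for MARS over MARS2 it was 1.04 and 0.963, then 1.03 and 1.21. NARS over NARS2 was 1.00 and 1.00 in the controls and 1.03 and 1.20 in simulated microgravity. Replicate 2 had the highest ratio of the 4 libraries in these pairs and in 10 of the 12 pairs in all. The mitochondrial partners AARS2, TARS2, MARS2 and NARS2 had log2 fold changes in replicate 2 of -0.07, 0.01, 0.11 and 0.12. CARS over CARS2 was 0.967 and 1.03 in the controls and 0.999 and 1.09 in simulated microgravity, where both genes were higher. The ratio was 0.887 in replicate 1 and 1.15 in replicate 2 for SARS over SARS2, and 1.09 and 1.11 for IARS over IARS2. For HARS, WARS and YARS over their partners it was 0.947, 0.911 and 0.963 in replicate 1 and 1.10, 1.04 and 1.04 in replicate 2. The ratio of LARS to LARS2 (0.945 and 1.05, then 0.999 and 0.967) lay within the range of the controls in both simulated microgravity libraries, as did RARS to RARS2 (0.987 and 1.01, then 0.999 and 0.996).

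Among 16 listed genes of accessory factors in tRNA charging, which include the scaffold genes, 1 rose in replicate 2 (EEF1E1), none in replicate 1 and none with both libraries in edgeR's quasi-likelihood test. The shares of all genes that rose were 2.5%, 0.788% and 0.237%. None of the 16 had an unadjusted p under 0.05 with both libraries in that test. XPOT, the exporter of tRNA from the nucleus, had 358 and 385 CPM in the controls, 361 CPM in replicate 1 and 441 CPM in replicate 2, and did not pass (edgeR adjusted p = 0.107 in replicate 2).

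RefSeq lists several overlapping records for 13 of the 34 genes, 63 records in all, and records of 1 gene share reads. Among all 22375 records, 1.32% passed and 0.322% were higher in edgeR's quasi-likelihood test with both libraries, and none of the 63 passed. With the replicate number added to that test as a block, 7 of the 63 passed, where 2.05% of all records did. Log2 fold changes of the records of a gene differed by at most 0.0145 (HARS), except for SARS. The full-length SARS record (hg19 chromosome 1, 109756515 to 109780804, plus strand) had 12174 and 12169 counts in the static controls and 11447 and 15016 in simulated microgravity, a log2 fold change of 0.12. A short noncoding record of SARS, which ends at 109760113, had 2798 and 2834 counts in the controls and 2944 and 4155 in simulated microgravity, a log2 fold change of 0.33 (SE 0.09, edgeR adjusted p = 0.128). The short record was therefore above both controls in both simulated microgravity libraries, while the full-length record was so only in replicate 2. In replicate 2 alone, where 2.82% of all records rose, the short record had 0.50 (edgeR adjusted p = 3.65e-06) and the full-length record 0.24 (edgeR adjusted p = 0.0575).

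The library protocol and counting are not stated to keep strand, so reads of overlapping genes cannot be told apart. In GENCODE (GRCh37), exons of MARS share 355 bases with DDIT3, an ATF4 target on the opposite strand, and 519 bases with ARHGAP9, 5.05% and 7.38% of the exon bases of MARS. DDIT3 had 945 and 946 counts in the static controls and 1012 and 1669 in simulated microgravity, against 17873 and 17143, then 17912 and 23798, for MARS. CARS2 shares 334 bases (3.2%) with ING1, and AARS shares 43 bases (0.42%) with DDX19B. HARS shares 1090 bases (7.7%) with WDR55 and 108 bases with HARS2. KARS, WARS, YARS and AARS2 share between 4.05% and 4.52% of their exon bases with a gene on the opposite strand, and SARS2 shares 48.2% with an unnamed gene on the same strand. Exon bases here are those of all GENCODE transcripts of a gene, not of the counted record. How many reads fell on the shared bases is not known. These shares therefore do not give the size of the error in the values of these genes.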

How the data were processed

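The deposited table gives, per RefSeq record, the read counts of 4 libraries, which the authors made by aligning to hg19 with TopHat (TopHat2 2.0.8 in the submitters' processing notes), removing reads with multiple mappings and counting reads per known gene with Bamutils. Every listed record has a deposited CPM above 1 in at least 1 library. Its legend places all 4 libraries in the same run and lane. CPM values deposited by the authors are counts scaled to each library and were not used. The deposited log2 columns (fold change and mean CPM) and the deposited p-values and FDR hold the authors' own comparison and were not used.

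The counts went into edgeR 4.0.16 in R 4.3.3 (TMM, filterByExpr, which removed 0 genes, quasi-likelihood test, Benjamini-Hochberg FDR under 0.1 over all genes) on 11415 genes, 1 record per symbol with the highest mean count. The common dispersion was 0.00458, and scripts were tested on simulated data. SDs are over 2 libraries. Standard errors are the log2 fold change divided by the root of the F statistic. Replicates differed by more than counting noise (chi-square per degree of freedom 19.6 and 22.4). DESeq2 1.42.0 and limma 3.58.1 (voom) were alternatives, beside other scalings, filters and dispersions, leaving out each library and a replicate block.

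Members, gene lists (class, complex, ATF4 targets, accessory factors, markers) and the motif were chosen with earlier results of these data known. The rule for full values takes genes past the FDR and the 5 smallest p in each compartment. Other genes described in full were chosen after their values were seen. Of the epithelial and fibroblast markers, 1 of 4 was listed in each (KRT8 and COL1A1). Coordinates are 1-based. Some results of the planned analysis are not reported here.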

Additional observations from a re-analysis of the deposited data

How the results depend on the processing

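With both libraries of each condition, the number of synthetase genes that rose was 0 under 12 of 14 other settings of the test, FDR, scaling, filter, record or samples, and none fell under any. The exceptions were DESeq2 with 1 and the fit without simulated microgravity replicate 1 with 7, so leaving out 1 library ranged from 0 to 7. Over all genes, the number that rose was 27 in the reported fit, 17 at an FDR under 0.05, 51 with edgeR's likelihood ratio test and 49 with its exact test. Leaving out 1 library ranged from 11 to 285 genes that rose and from 59 to 592 that fell, against 99. The cause was not tested. In simulated microgravity replicate 2, edgeR's likelihood ratio test called 2 synthetase genes in place of 7. The coefficient of variation between libraries beyond counting noise was 6.77%, and each synthetase gene had at least 459 counts per library.

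Leaving out 1 library, the median log2 fold change ranged from -0.010 (without simulated microgravity replicate 2) to 0.14 for cytosolic and from 0.0080 to 0.054 for mitochondrial synthetases. The sign turned without simulated microgravity replicate 2 for TARS (-0.0038 to 0.35 over the fits that left out 1 library), GARS (-0.066 to 0.28), SARS (-0.0099 to 0.24), YARS (-0.010 to 0.21), EEF1E1 (-0.059 to 0.29) and AIMP1 (-0.039 to 0.14). AIMP2 (-0.13 to 0.059) was positive without static control replicate 1 (0.02) and without simulated microgravity replicate 1. Among the values of named genes under other settings, 268 kept their direction and side of the threshold, 9 newly passed it and 8 turned sign. For the 18 other synthetases, 27 of 252 values had another sign.

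No label says that a replicate number marks a shared culture or day. Deviations of same-numbered libraries correlated at 0.08, and 2 pairs are too few to show whether the numbers pair the samples. With a replicate block, 88 genes passed, none of them a synthetase with 1 record per gene, and 7 of the 63 synthetase records passed (AARS, 5 of CARS and the short record of SARS), against 0 without the block. Of all 22375 records, 2.05% passed with the block and 1.32% without it. Leaving out 1 library ranged from 0 to 18 synthetase records, the 18 without simulated microgravity replicate 1, where 7.94% of all records passed.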
